A study of Mus musculus with 20 samples.

Results

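The genes described here encode the machinery that moves proteins into, along and out of the cilium: intraflagellar transport (IFT), the BBSome and the transition zone. They were 50 of the 45705 mouse genes measured, chosen by matching gene names to a list of known parts. All 50 passed the filter on low values, which asked for 1 RPKM or more in 4 or more of the 20 libraries. RPKM is a read number divided by the gene's length and by the library's reads. By role, the 50 were 6 subunits of the IFT-A complex, 12 of the IFT-B complex, 4 kinesin-2 motor genes, 7 BBSome subunits, 2 BBSome chaperonins, 4 genes for ciliary ARL GTPases and Tulp3, 10 of the MKS module of the transition zone, and 5 of its NPHP module, counting Cep290 there.

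Intraflagellar transport is the traffic of protein trains in both directions along the microtubules of a cilium. IFT-B trains are driven to the tip by kinesin-2 and IFT-A trains return to the base with dynein-2, the BBSome rides on them to carry membrane proteins, and the transition zone is the gate at the base that decides what may pass. A neural stem cell of the subventricular zone carries a single primary cilium that reaches the ventricle and receives Hedgehog signals, whereas the neighbouring ependymal cells carry tufts of motile cilia that drive cerebrospinal fluid. Both kinds of cilium are built and maintained with this machinery, and loss of its parts in people causes ciliopathies such as Bardet-Biedl, Joubert and Meckel syndromes.

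The 20 libraries came from Swiss Webster pups at postnatal day 5, with no genotype other than the strain and no agent named. Periventricular tissue was dissociated with Liberase, all pups of a litter were pooled with both sexes together, and cells were sorted by the surface antigens CD133, CD15 (LeX), CD140a and NG2. The 5 sorted populations were neural stem cells (NSC) and the neural progenitors PFMP, GRP3, GRP2/MP3 and BNAP/GRP1, of which the last pair are gates that hold more than 1 named kind of progenitor. Each had 4 libraries, 1 from each of 4 batches, and a library is named by its population and batch. Values set side by side for the 4 progenitors are in the order BNAP/GRP1, then GRP2/MP3, then GRP3, then PFMP. RNA with a polyA tail was amplified before sequencing, and the depth of the libraries is known only as a ratio, between 0.0395 and 1.41 times that of BNAP/GRP1 1.

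Some libraries stood apart, which bears on every value below. In batch 3 the progenitor libraries were nearly alike across the 27614 genes that passed the filter, with Pearson's r between 0.966 and 0.972 for the 6 combinations, and NSC 3 had an r of 0.934 to 0.938 with them. In batch 1 the progenitors' r was 0.715 to 0.897. BNAP/GRP1 4 was the shallowest library, and the median RPKM over all its genes was 8.3, against at most 2.02 in the others. Yet it had 38191 genes above 0, against 20116 to 39689 in the others. Its reference housekeeping genes (10 genes) summed to 1592 RPKM, against 6527 to 24921 in the others. What set this library apart was not tested. The NSC libraries held the markers of radial glia and astroglia (10 genes, summed RPKM 1186 to 5596), and so did the progenitors, with 464 to 4729 in BNAP/GRP1, 364 to 6026 in GRP2/MP3 and 1188 to 15143 across GRP3 and PFMP. Markers of ependymal cells (12 genes) summed to 2075 to 21781 in NSC and 95 to 981 in the progenitors. Microglia markers (12 genes) summed to 38.3, 39.7 and 89.4 in NSC 1, 2 and 4 but 2540 in NSC 3.

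Summed over the 50 genes, the machinery was most abundant in NSCs. The sums are weighted to the genes of highest RPKM, Ift20, Tmem107, Arl3 and Ift43, with NSC means of 863, 774, 742 and 552. The summed RPKM of the 50 genes was 7490.4, 7245, 973 and 3577 in NSC 1 to 4. It was 489.9, 485, 272 and 634 in BNAP/GRP1, 477, 547, 249.6 and 1152 in GRP2/MP3, 929.5, 1068, 273 and 854 in GRP3, and 1039, 743, 273 and 1255 in PFMP. Each progenitor library lay below the NSC library of its own batch, but PFMP 4, GRP2/MP3 4, GRP3 2 and PFMP 1 lay above NSC 3. Within NSC the libraries were far apart: NSC 1 was the highest for 25 of the 50 genes, NSC 2 for 13 and NSC 4 for 12, and NSC 3 was the lowest for 39.

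Levels also differed widely between parts of the same complex. In NSC, the mean RPKM ran from 5.0 (Ttc26) to 863 (Ift20) among the 12 IFT-B subunits, from 3.82 (Wdr19) to 552 (Ift43) among the 6 IFT-A subunits and from 3.20 (Tctn1) to 774 (Tmem107) among the 10 genes of the MKS module. The 7 BBSome subunits were closer together, from 9.35 (Bbs1) to 54.9 (Bbs5). Across the 50 genes the NSC mean was lower where the summed exon length was greater (Spearman's rho -0.449, n = 50 genes of the same libraries), whereas across the 27345 genes tested with a length it was higher (rho 0.238). The order of subunits within a complex is that of the authors' RPKM, a level per length after amplification.

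**Figure D1:**
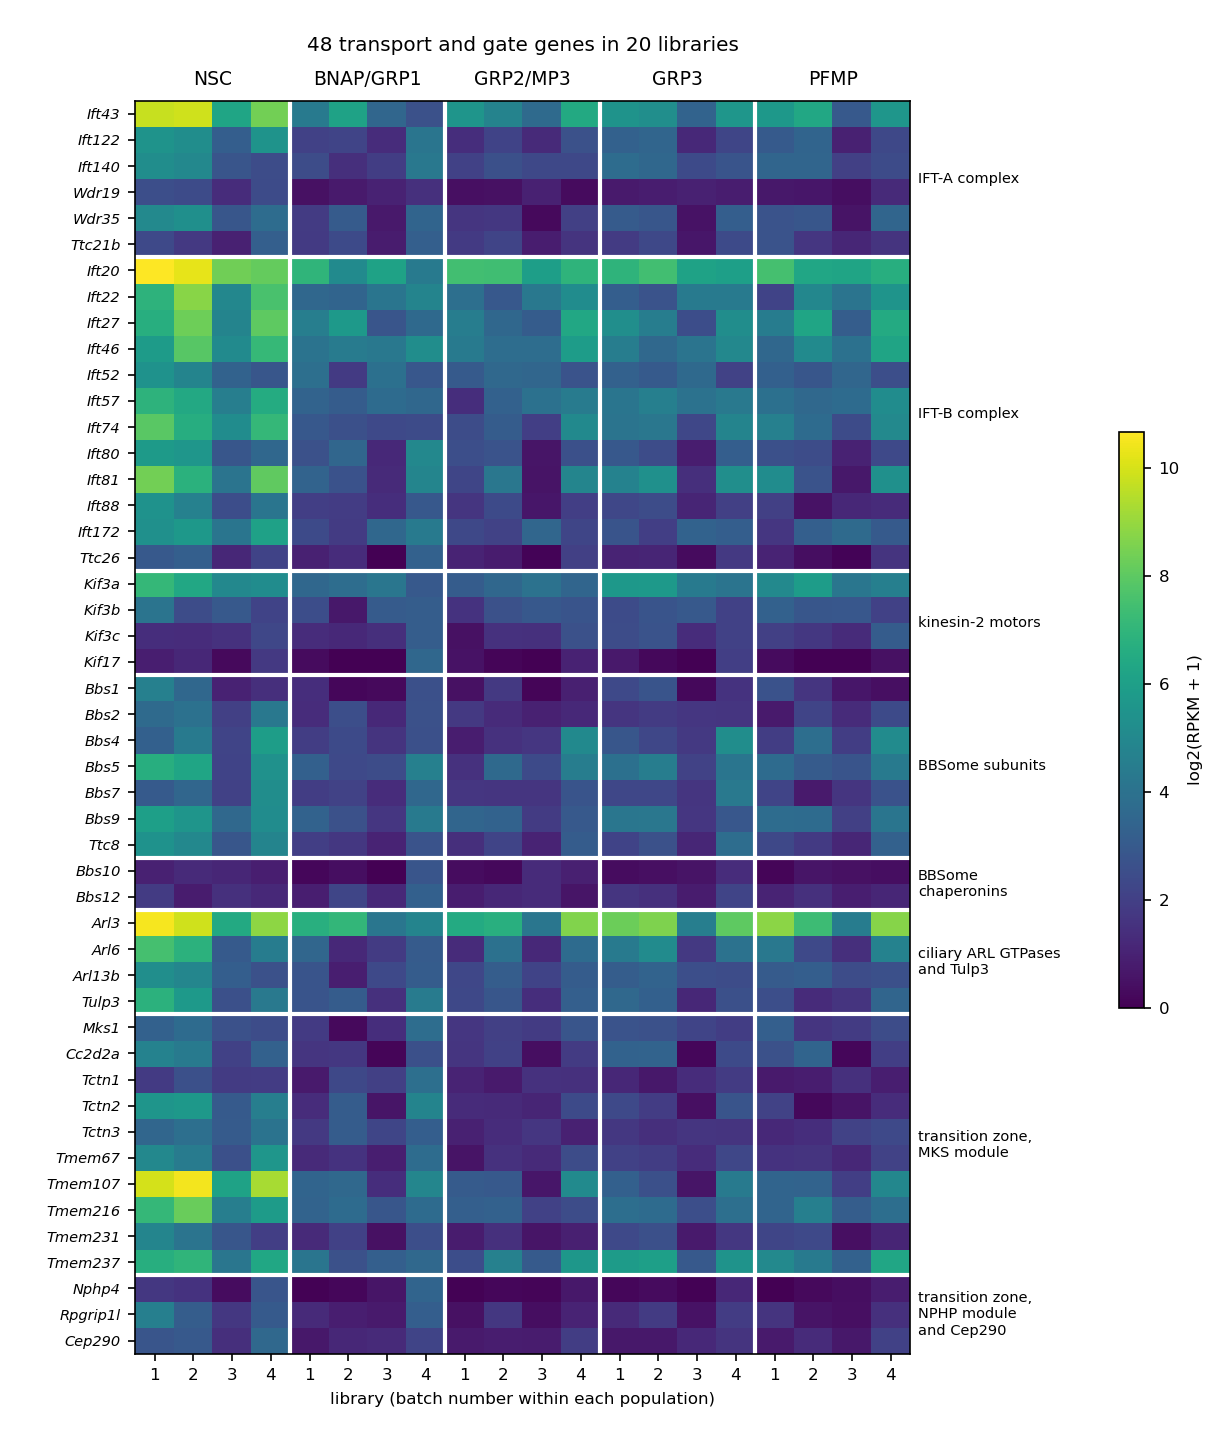
Heat map of log2(RPKM + 1) for 48 of the 50 genes (rows, grouped by role) in the 20 libraries (columns, grouped by population and numbered by batch). The columns of NSC 1, 2 and 4 are the brightest for most rows, NSC 3 is dimmer, and the batch 3 columns of the progenitors are the darkest.

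The first question was which of these genes differ between NSCs and the progenitors that descend from them. A difference is given here as the progenitor mean minus the NSC mean on the log2(RPKM + 1) scale, which understates the change of low genes, and was tested with limma over all 27614 genes with Benjamini-Hochberg adjustment at 0.05. Against the mean of the 4 progenitors, 17 of the 50 genes fell and none rose, where 1.96% of all genes tested fell and 0.0217% rose. The median difference of the 50 was -1.87, against 0.070 over all genes, and 48 of the 50 differences were below 0. By progenitor, 6, 9, 3 and 5 of the 50 fell, against 0.76%, 1.12%, 1.04% and 1.14% of all genes, and again none rose, where 0, 0, 0.0109% and 0.00362% of all genes did. At an unadjusted p under 0.05, 33, 35, 27 and 29 of the 50 were lower (4.03%, 4.92%, 4.36% and 5.08% of all genes) and 0 were higher (1.87%, 0.873%, 1.26% and 0.793%). The medians were -1.93, -2.19, -1.66 and -1.73, against 0.38, -0.077, 0.047 and -0.20 over all genes. The 4 comparisons share the NSC libraries.

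With the batch as a replicate block, 33 of the 50 fell in the mean comparison (4.14% of all genes), and 23, 31, 22 and 21 in the 4 progenitors (2.02%, 2.91%, 2.33% and 2.61%). The calls without the block rested on NSC 1, NSC 2 and NSC 4. Of the 17 calls, 7 were kept without NSC 1, 6 without NSC 2 and 8 without NSC 4. All 17 were kept without NSC 3, when 28 of the 50 fell, and 835 of all genes did. With batch 1 or batch 2 left out of every population 1 call remained, that of Tmem107, where 168 and 138 of all genes fell. With batch 3 left out all 17 were kept and 23 of the 50 fell, as did 656 of all genes. Of the 17, 5 were called with each of the 20 libraries left out in turn, Ift20, Ift74, Tmem107 and Tmem216 among them, and the other 12 were lost without at least 1 of them.

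**Figure D2:**
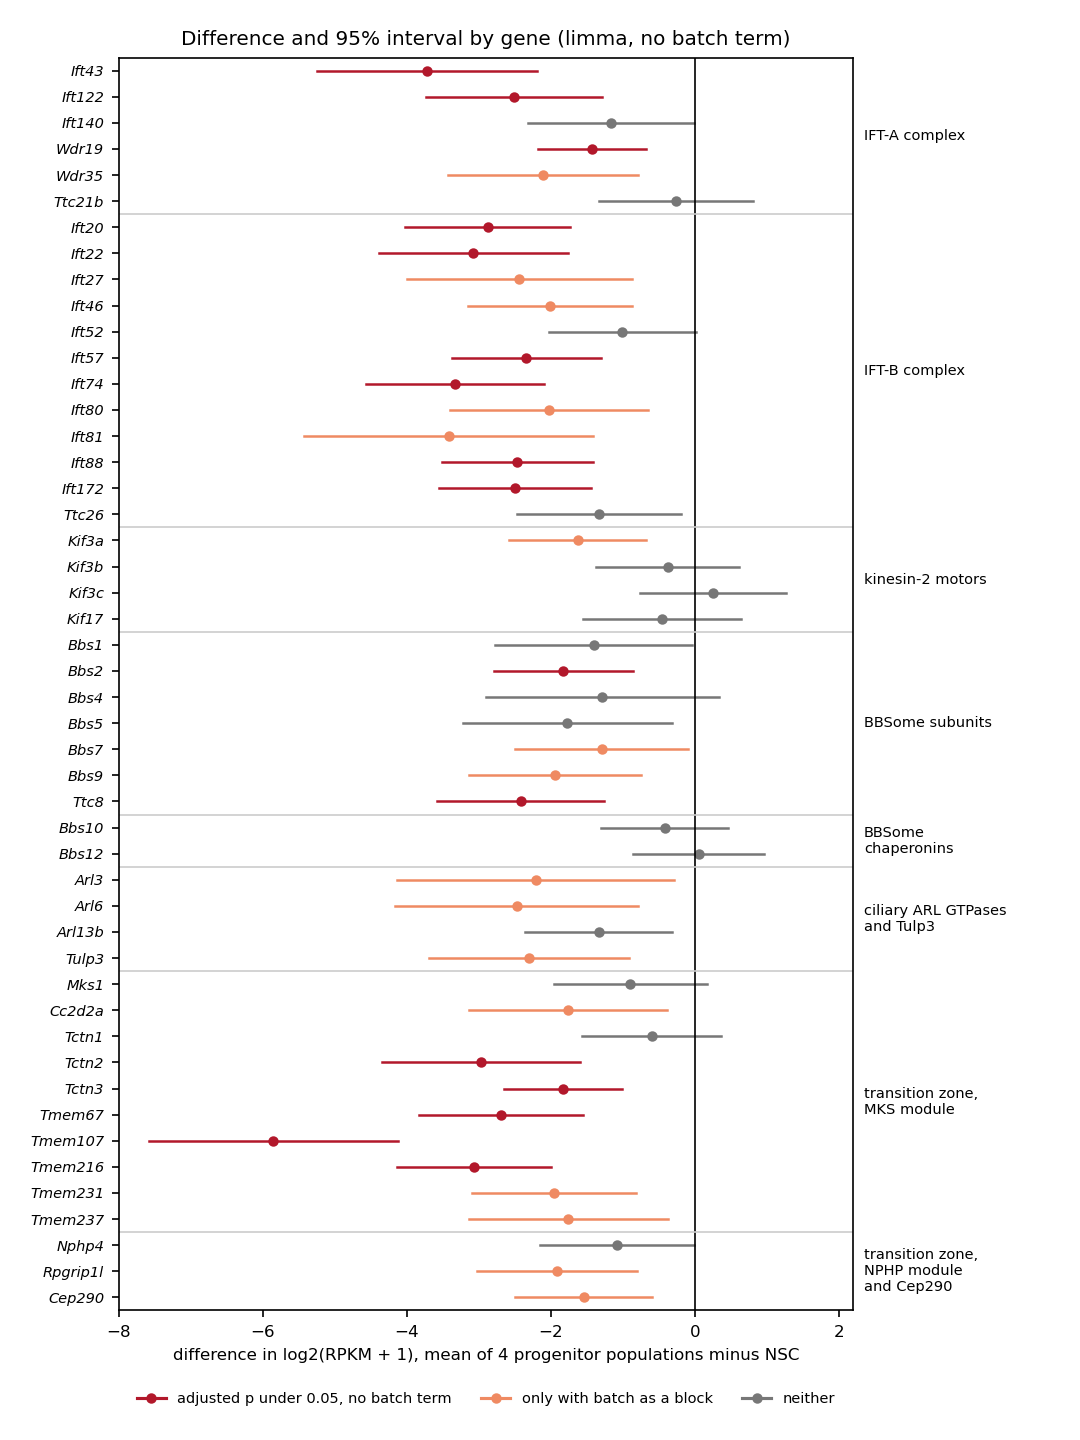
Difference in log2(RPKM + 1) between the mean of the 4 progenitor populations and NSC for 48 of the 50 genes, with the 95% interval from limma without a batch term, in the order of the heat map. Points are dark red for genes called without a batch term, orange for those called with batch as a block but not without, and grey for the rest; Tmem107 lies farthest to the left and the kinesin-2 genes other than Kif3a and both chaperonins lie near 0.

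Of the IFT-A complex, which returns trains to the base and brings receptors into the cilium, 3 of 6 genes fell in the mean comparison (median -1.77). Ift43 was at 857, 937, 76.1 and 337 RPKM in NSC 1, 2, 3 and 4, at 19.4, 70.4, 10.5 and 5.32 in BNAP/GRP1, at 45.5, 26.1, 11.8 and 89 in GRP2/MP3, at 44, 37.2, 9.52 and 47.9 in GRP3 and at 49.997, 83.6, 6.97 and 47.9 in PFMP. Its NSC libraries lay above all progenitor libraries except that 2 progenitor libraries were above NSC 3, and the difference was -3.72 (95% interval -5.25 to -2.19, limma adjusted p = 0.00515). Ift43 (ENSMUSG00000007867), a peripheral subunit, lies on chromosome 12 of GRCm38 from 86082541 to 86162459. Ift122 was at 44.1, 35.9, 8.07 and 43.5 RPKM in NSC 1 to 4, at 3.16, 3.5, 1.53 and 16.7 in BNAP/GRP1, at 1.63, 3.46, 1.43 and 5.2 in GRP2/MP3, at 9.04, 10.3, 1.34 and 3.63 in GRP3 and at 7.06, 9.92, 1.0 and 4.01 in PFMP. Ift122 encodes a core subunit, and in each batch all its progenitor libraries were below NSC, although 4 of the 16 were above NSC 3. Its difference was -2.51 (limma adjusted p = 0.0217), and the calls of both genes were lost without NSC 1 or NSC 2, that of Ift122 also without NSC 4 or batch 4. Wdr35 was at 31.1, 38.2, 6.24 and 12.6 RPKM in NSC 1 to 4, at 2.58, 7.39, 0.636 and 9.67 in BNAP/GRP1, at 2.11, 2.36, 0.214 and 3.05 in GRP2/MP3, at 7.23, 6.13, 0.426 and 7.98 in GRP3 and at 5.58, 6.21, 0.478 and 9.99 in PFMP. Wdr35 encodes another subunit of the periphery, and its 16 progenitor libraries were below the NSC library of their batch, yet it did not pass the test (-2.11, limma adjusted p = 0.121). With the replicate block it did (limma adjusted p = 0.000819, 0.000389 to 1 over the alternatives). Of the remaining subunits, Wdr19 fell by 1.43 on the log2 scale (limma adjusted p = 0.0393), a call lost without NSC 1, 2 or 4 and without most of the single progenitor libraries. Ift140 and Ttc21b, at -1.16 and -0.26, did not pass.

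The IFT-B complex forms the trains that run to the tip, and 6 of its 12 genes fell in the mean comparison (median -2.45), 10 with the replicate block. Ift74 was at 245, 99.1, 35.1 and 137 RPKM in NSC 1 to 4, at 6.62, 5.04, 4.06 and 4.38 in BNAP/GRP1, at 4.61, 7.6, 2.94 and 32.7 in GRP2/MP3, at 16.2, 17.6, 3.8 and 26.8 in GRP3 and at 23.6, 12.4, 4.46 and 31.2 in PFMP. Ift74, with Ift81, binds tubulin for delivery to the growing axoneme, and the populations did not overlap: the highest progenitor library, GRP2/MP3 4, was below NSC 3. It averaged 129 ± 87.9 RPKM in NSC (SD, n = 4) and 5.02 ± 1.14, 12 ± 14, 16.1 ± 9.44 and 17.9 ± 11.8 in the 4 progenitors. The difference was -3.33 (95% interval -4.57 to -2.10, limma adjusted p = 0.00193). Ift74 (ENSMUSG00000028576, chromosome 4 from 94614491 to 94693229 on the plus strand of GRCm38) fell in BNAP/GRP1 and GRP2/MP3 and, with the replicate block, in all 4 progenitors.

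Ift81 was at 336, 113, 16.3 and 265 RPKM in NSC 1 to 4, at 9.58, 5.43, 1.41 and 28.1 in BNAP/GRP1, at 3.73, 17.9, 0.456 and 27.9 in GRP2/MP3, at 25.6, 40.1, 1.73 and 38 in GRP3 and at 35.5, 5.7, 0.603 and 40.05 in PFMP. Its partner was thus below NSC in every batch, but 8 of the 16 progenitor libraries were above NSC 3. Its difference of -3.42 lay beside that of Ift74 with a wider interval (-5.42 to -1.41), and did not pass (limma adjusted p = 0.0833). With the replicate block it did (limma adjusted p = 5.66e-05, 5.66e-05 to 0.844 over the alternatives). Ift22 was at 118, 438, 29.6 and 192 RPKM in NSC 1 to 4, at 10.9, 9.84, 16.7 and 27.1 in BNAP/GRP1, at 13.7, 6.55, 18.5 and 35.7 in GRP2/MP3, at 8.11, 5.6, 19.7 and 20.1 in GRP3 and at 3.36, 29.3, 16 and 44.7 in PFMP. Ift22, a small GTPase-like subunit, was below NSC in every batch and overlapped NSC 3 in 2 libraries. It fell by 3.08 on the log2 scale (limma adjusted p = 0.00739), a call lost without NSC 2, and was the 1 IFT gene that fell in GRP3 without the block.

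Ift88 was at 42.2, 25, 4.81 and 16.8 RPKM in NSC 1 to 4, at 2.99, 2.71, 1.6 and 6.67 in BNAP/GRP1, at 2.1, 4.28, 0.573 and 2.9 in GRP2/MP3, at 3.76, 4.63, 1.16 and 3.11 in GRP3 and at 3.06, 0.426, 1.31 and 1.49 in PFMP. Ift88, whose loss in the Oak Ridge polycystic kidney mouse shortens cilia, was below NSC in every batch, and of the progenitor libraries 1, BNAP/GRP1 4, was above NSC 3. The difference was -2.47 (limma adjusted p = 0.00701), and the call was lost without NSC 1 or NSC 2. The other 8 IFT-B genes had differences between -2.88 and -1.01, and 3 of these, Ift20, Ift57 and Ift172, fell. The calls of Ift57 and Ift172 were lost without NSC 2 or NSC 4, that of Ift57 also without NSC 1. Ift20, the subunit also found at the Golgi, had the highest NSC mean of the 50 genes, and its NSC range of 281 to 1617 RPKM lay above its progenitor range of 20.3 to 181. Ift52 (-1.01) and Ttc26 (-1.33) were nearest to 0 and passed the test neither without nor with the block.

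The kinesin-2 motors, which pull the trains outward, had no gene called in the mean comparison without the block (median -0.42) and 1 of 4, Kif3a, with it (limma adjusted p = 0.0118). Kif3a was at 134, 81.9, 30.7 and 34.9 RPKM in NSC 1 to 4, at 10.9, 13.1, 17.2 and 6.95 in BNAP/GRP1, at 7.57, 10.9, 15.2 and 9.9988 in GRP2/MP3, at 50.7, 52.6, 20.1 and 16.3 in GRP3 and at 31.7, 58.4, 17.1 and 22.9 in PFMP. Kif3a, a motor subunit of the heterotrimeric kinesin-2, was below NSC in all 16 libraries of the same batch, and 4 libraries of GRP3 and PFMP were above NSC 3. Without the block it fell in GRP2/MP3 (-2.36, limma adjusted p = 0.0487), and its differences in BNAP/GRP1 and then GRP3 and PFMP were -2.26, -0.91 and -0.98. Kif3b was at 16, 4.58, 6.91 and 3.42 RPKM in NSC 1 to 4, at 4.7, 0.633, 7.4 and 7.84 in BNAP/GRP1, at 1.98, 5.34, 6.64 and 5.79 in GRP2/MP3, at 4.48, 5.79, 6.83 and 3.23 in GRP3 and at 8.86, 6.23, 6.34 and 3.2 in PFMP. Kif3b, its usual partner, overlapped NSC throughout: 6 of the 16 progenitor libraries were at or above the NSC library of their batch, and the difference was -0.38 (95% interval -1.37 to 0.62). Kif17 was at 0.879, 1.28, 0.21 and 2.39 RPKM in NSC 1 to 4, at 0.228, 0, 0 and 10.8 in BNAP/GRP1, at 0.426, 0.114, 0 and 1.05 in GRP2/MP3, at 0.653, 0.165, 0 and 2.91 in GRP3 and at 0.226, 0, 0 and 0.388 in PFMP. Kif17, the homodimeric kinesin-2, was under 3 RPKM in 19 libraries and at 10.8 in BNAP/GRP1 4. Its difference was -0.46 (95% interval -1.55 to 0.64). Kif3c, the alternative partner of Kif3a, was at 0.25, but 35.3% of its exon bases are shared with 1110002L01Rik on the opposite strand. Whether the counting used strand is not given in the sources used here, so reads of the 2 genes may not be told apart.

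The BBSome is the coat that loads receptors onto trains for removal, and 2 of its 7 subunits fell in the mean comparison (median -1.77), 4 with the replicate block. Ttc8 was at 42.3, 30.6, 6.26 and 27 RPKM in NSC 1 to 4, at 2.92, 2.33, 1.1 and 5.59 in BNAP/GRP1, at 1.74, 3.57, 1.09 and 7.47 in GRP2/MP3, at 3.38, 5.34, 1.24 and 13.1 in GRP3 and at 4.01, 2.53, 1.22 and 8.96 in PFMP. Ttc8 (BBS8) was below NSC in all 16 libraries of the same batch and fell by 2.42 on the log2 scale (95% interval -3.58 to -1.26, limma adjusted p = 0.0206), a call lost without NSC 1, 2 or 4. Bbs2 was at 11.7, 14.7, 3.01 and 18.5 RPKM in NSC 1 to 4, at 1.55, 4.82, 1.34 and 5.22 in BNAP/GRP1, at 2.44, 1.48, 0.972 and 1.37 in GRP2/MP3, at 2.11, 2.65, 2.18 and 2.09 in GRP3 and at 0.71, 3.49, 1.48 and 4.21 in PFMP. Bbs2, part of the core of the coat, fell by 1.83 (limma adjusted p = 0.0413, 0.00264 to 0.671 over the alternatives), a call that was lost without any of 15 of the 20 libraries. Bbs9 was at 64.3, 46, 11.1 and 35.1 RPKM in NSC 1 to 4, at 9.34, 5.25, 2.25 and 19.2 in BNAP/GRP1, at 10.3, 9.09, 2.61 and 6.77 in GRP2/MP3, at 17, 17.8, 2.26 and 6.53 in GRP3 and at 12.8, 12.3, 3.08 and 16.8 in PFMP. Bbs9 was below NSC in every batch and passed with the replicate block but not without it (-1.94, limma adjusted p = 0.112 without and 0.00117 with it, 0.000143 to 0.95 over the alternatives).

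Bbs4 was at 8.76, 19.97, 3.52 and 60.2 RPKM in NSC 1 to 4, at 2.81, 4.25, 2.05 and 5.0 in BNAP/GRP1, at 0.827, 1.85, 2.17 and 32.6 in GRP2/MP3, at 6.22, 3.86, 2.42 and 36 in GRP3 and at 2.78, 13.6, 2.86 and 34.8 in PFMP. Bbs4, a subunit also found at the satellites around the centrosome, was higher in batch 4 than in the other batches of GRP2/MP3, GRP3 and PFMP, and was below NSC in each batch. Its difference was -1.28 (95% interval -2.91 to 0.34). Bbs1, Bbs5 and Bbs7 lay between -1.77 and -1.30 and did not pass, although Bbs7 did with the block. The chaperonins that fold and assemble the BBSome had the lowest median in NSC of the 8 roles, 1.37 RPKM. Bbs10 was at 0.982, 1.44, 1.2 and 0.867 RPKM in NSC 1 to 4, at 0.137, 0.311, 0 and 5.92 in BNAP/GRP1, at 0.265, 0.17, 1.47 and 0.93 in GRP2/MP3, at 0.263, 0.365, 0.479 and 1.59 in GRP3 and at 0.112, 0.535, 0.406 and 0.3 in PFMP. Bbs12 was at 2.62, 0.757, 1.78 and 1.32 RPKM in NSC 1 to 4, at 0.86, 3.66, 1.37 and 8.71 in BNAP/GRP1, at 0.791, 1.29, 1.48 and 0.541 in GRP2/MP3, at 2.12, 1.78, 0.749 and 3.6 in GRP3 and at 1.06, 1.77, 0.839 and 1.23 in PFMP. Both were under 10 RPKM in all 20 libraries and highest in BNAP/GRP1 4. Their differences were -0.42 (95% interval -1.30 to 0.47) and 0.052 (95% interval -0.86 to 0.97).

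The ARL GTPases and Tulp3 deliver membrane-bound cargo, and none of the 4 fell without the block (median -2.26), while 3 did with it. Arl3 was at 1476, 949, 88 and 456 RPKM in NSC 1 to 4, at 106, 130.4, 17 and 26.9 in BNAP/GRP1, at 90.8, 105, 17.4 and 404 in GRP2/MP3, at 304, 383, 22.6 and 258 in GRP3 and at 451, 156, 21.2 and 422 in PFMP. Arl3, which releases lipidated proteins inside the cilium, was the third most abundant of the 50 genes in NSC. All 16 progenitor libraries were below NSC of the same batch, and 11 were above NSC 3. The difference was -2.21 (95% interval -4.13 to -0.28, limma adjusted p = 0.505), and the gene passed with the block (limma adjusted p = 0.00974, 0.00501 to 1 over the alternatives). Arl6 was at 184, 115, 7.12 and 21.4 RPKM in NSC 1 to 4, at 10.3, 1.37, 2.62 and 7.46 in BNAP/GRP1, at 1.46, 14.7, 1.34 and 12.1 in GRP2/MP3, at 19.9, 34.2, 2.37 and 15.3 in GRP3 and at 18.4, 4.06, 1.72 and 25.8 in PFMP. Arl6 (BBS3) recruits the BBSome to membranes. It was below NSC in 15 of the 16 libraries of the same batch, with a difference of -2.47 (limma adjusted p = 0.189 without and 0.0234 with the block, 0.0234 to 1 over the alternatives).

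Arl13b was at 37.6, 28.8, 8.11 and 5.29 RPKM in NSC 1 to 4, at 5.75, 0.842, 4.04 and 7.61 in BNAP/GRP1, at 3.83, 7.73, 3.48 and 7.61 in GRP2/MP3, at 7.75, 9.51, 4.91 and 4.58 in GRP3 and at 7.44, 8.15, 4.51 and 5.06 in PFMP. Arl13b, the membrane GTPase that activates Arl3 and marks the cilium in microscopy, was above 10 RPKM in NSC 1 and NSC 2 and in no other library. Its difference of -1.34 passed in neither model (limma adjusted p = 0.316 and 0.125, 0.0538 to 1 over the alternatives). Tulp3 was at 115, 53.2, 5.04 and 18.8 RPKM in NSC 1 to 4, at 5.88, 7.52, 1.77 and 20.5 in BNAP/GRP1, at 3.94, 6.31, 1.67 and 8.5 in GRP2/MP3, at 11, 8.77, 1.29 and 5.09 in GRP3 and at 4.95, 1.45, 2.07 and 10.2 in PFMP. Tulp3, the adapter that hands receptors to IFT-A, was below NSC in 15 of 16 libraries, with a difference of -2.30 (limma adjusted p = 0.098 without and 0.00616 with the block, 0.00395 to 1 over the alternatives).

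The MKS module of the transition zone held Tmem107, the gene with the largest difference of the 50, and 5 of its 10 genes fell (median -1.89), 8 with the block. Tmem107 was at 989.5, 1428, 70.6 and 608 RPKM in NSC 1 to 4, at 9.68, 11.2, 1.62 and 28.7 in BNAP/GRP1, at 7.23, 6.98, 0.582 and 33.4 in GRP2/MP3, at 8.66, 5.15, 0.502 and 20.1 in GRP3 and at 9.8, 9.65, 2.95 and 29.5 in PFMP. Tmem107, a membrane protein of the gate that recruits other MKS proteins, was highest in NSC 2, and the populations did not overlap: the highest progenitor library, GRP2/MP3 4, had 33.4 RPKM against 70.6 in NSC 3. It averaged 774 ± 576 RPKM in NSC (SD, n = 4) and 12.8 ± 11.4, 12.1 ± 14.6, 8.6 ± 8.36 and 13 ± 11.5 in the progenitors. The difference was -5.85 (95% interval -7.58 to -4.12, limma adjusted p = 0.000178), with -5.63, -6.01, -6.24 and -5.52 in the 4 progenitors (limma adjusted p = 0.00829, 0.00327, 0.00226 and 0.00627). Tmem107 (ENSMUSG00000020895, chromosome 11 from 69070806 to 69073293 on the plus strand of GRCm38) was the 1 gene of the 50 that fell in all 31 alternative analyses of the mean comparison.

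Tmem216 was at 137, 295, 22.3 and 57.5 RPKM in NSC 1 to 4, at 9.42, 12.2, 6.18 and 12.1 in BNAP/GRP1, at 8.24, 9.04, 3.23 and 4.64 in GRP2/MP3, at 13.4, 12.1, 4.96 and 13.8 in GRP3 and at 9.84, 23.6, 7.81 and 13.3 in PFMP. Tmem216, a tetraspan gate protein mutated in Joubert and Meckel syndromes, was separated from NSC but for PFMP 2, which was just above NSC 3. It fell by 3.07 on the log2 scale (95% interval -4.14 to -2.0, limma adjusted p = 0.00105) and was, with Tmem107, the 1 other gene that fell in all 4 progenitors without the block, while 15 genes did with it. Tctn2 was at 46.1, 49.9, 7.01 and 22.7 RPKM in NSC 1 to 4, at 1.58, 7.58, 0.52 and 27 in BNAP/GRP1, at 1.51, 1.4, 1.15 and 4.31 in GRP2/MP3, at 4.17, 2.69, 0.355 and 5.8 in GRP3 and at 3.35, 0.172, 0.484 and 1.52 in PFMP. Tctn2, a tectonic of the module, was below NSC in 15 of 16 libraries of the same batch, with BNAP/GRP1 4 above NSC 4. It fell by 2.97 (limma adjusted p = 0.015), a call lost without NSC 1, 2 or 4. The other 7 genes of the module had differences from -2.69 to -0.60. Of these Tmem67, the receptor-like meckelin, and Tctn3 fell, by 2.69 and 1.83, calls lost without NSC 1 or NSC 4 and for Tctn3 also without NSC 2. Cc2d2a, Tmem231 and Tmem237 passed with the block but not without it. Tctn1 was nearest to 0, with 19% of its exon bases shared with Hvcn1 on the opposite strand, and 10.6% of those of Tmem237 are shared with G730003C15Rik.

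The NPHP module stands beside the MKS module in the gate, and Cep290, counted with it here, ties the microtubules to the membrane. Rpgrip1l was at 22.9, 7.9, 2.34 and 7.17 RPKM in NSC 1 to 4, at 1.4, 0.858, 0.695 and 8.18 in BNAP/GRP1, at 0.411, 2.34, 0.318 and 1.08 in GRP2/MP3, at 1.39, 2.65, 0.429 and 2.7 in GRP3 and at 2.04, 0.486, 0.361 and 1.78 in PFMP. Rpgrip1l, a scaffold of the gate, was below NSC in 15 of 16 libraries, and its difference of -1.91 passed with the block (limma adjusted p = 0.0793 without, 0.0112 with it, 0.00197 to 1 over the alternatives). Cep290 was at 5.92, 6.96, 1.75 and 11.3 RPKM in NSC 1 to 4, at 0.624, 1.3, 1.41 and 3.5 in BNAP/GRP1, at 0.683, 0.791, 0.745 and 2.87 in GRP2/MP3, at 0.595, 0.616, 1.31 and 2.05 in GRP3 and at 0.711, 1.48, 0.616 and 3.18 in PFMP. Cep290 was low throughout and below NSC in all 16 libraries of the same batch, with a difference of -1.54 (limma adjusted p = 0.11 without and 0.00776 with the block, 0.00278 to 1 over the alternatives). Nphp4, at -1.08, passed in neither model.

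**Figure D3:**
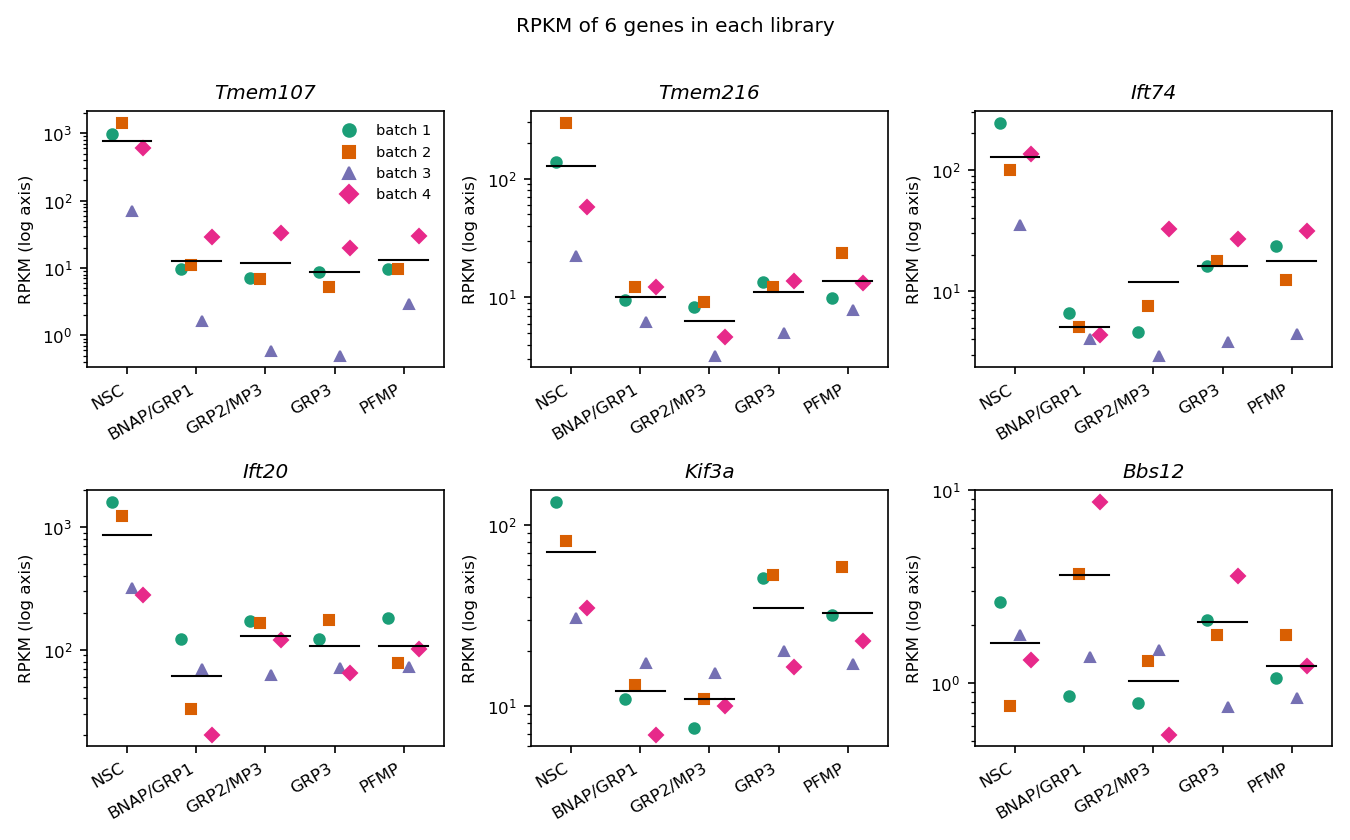
RPKM (log axis) of Tmem107, Tmem216, Ift74, Ift20, Kif3a and Bbs12 in each library, with colour and marker for the batch and a line at the mean of the 4 libraries of a population. Tmem107, Ift74 and Ift20 have every NSC library above every progenitor library, and the Bbs12 libraries overlap. The Kif3a means are lower in BNAP/GRP1 and GRP2/MP3 than in the other progenitors, but Kif3a did not pass the test among progenitors.

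The level of a gene moved with the size of its difference across the 50 (Spearman's rho -0.831 between NSC mean and difference, n = 50 genes of the same libraries, which also share the NSC values). Of the 25 genes with the highest mean over the 20 libraries (9.09 to 294 RPKM) 11 fell, and of the 25 with the lowest (0.887 to 8.63 RPKM) 6 did, with medians of -2.43 and -1.34. The added 1 RPKM compresses the differences of the lower set.

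Set against the NSC library of the same batch, 28 of the 50 genes were lower in all 16 progenitor libraries, against 3.28% of all genes. By progenitor, 30, 41, 41 and 40 were lower in every batch, against 7.68%, 12%, 9.07% and 12.3% of all genes. The size depended on the batch. The median difference of the 50 was -3.01, -3.13, -2.12 and -2.26 in batch 1 for the 4 progenitors. It was -2.74, -2.58, -1.75 and -2.45 in batch 2 and -0.98, -1.13, -0.96 and -0.96 in batch 3. In batch 3, 45 to 49 of the 50 were lower, against 44.4% to 45.3% of all genes. In batch 4 it was -1.1, -1.65, -1.20 and -1.25, beside medians over all genes of 1.53, -0.29, 0.11 and -0.88. There, 31 of the 50 were lower in BNAP/GRP1 and 45 to 47 in the others. Of all genes, 22.4%, 63.5%, 41.9% and 70.1% were lower, so most genes were lower in GRP2/MP3 4 and PFMP 4. Without regard to batch, 4 genes, Ift20, Ift74 and Tmem107 among them, had all 16 progenitor libraries below all 4 NSC libraries (0.587% of all genes). Without BNAP/GRP1 4 there were 8, which added Wdr19, Ift88, Ift172 and Tmem67. The share of all genes without that library was not counted, so the rise to 8 has nothing to be set against. BNAP/GRP1 4 was the highest progenitor library for 25 of the 50.

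**Figure D4:**
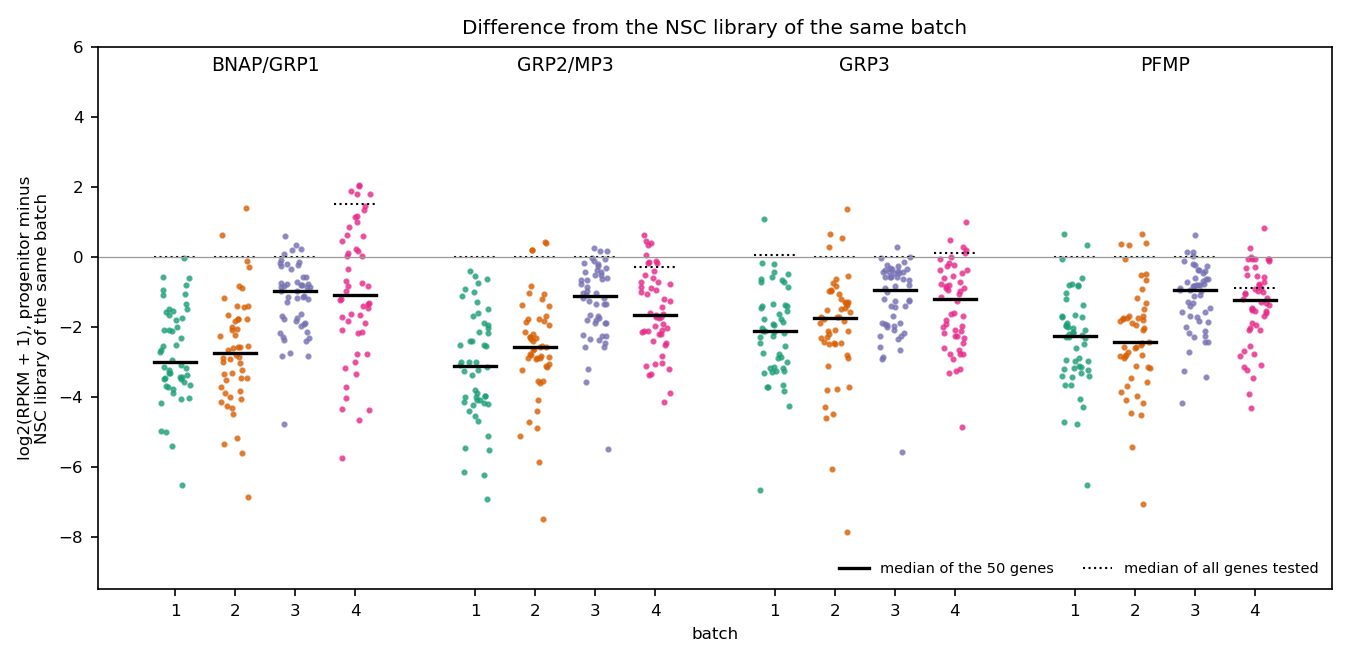
Difference in log2(RPKM + 1) between a progenitor library and the NSC library of the same batch for the 50 genes (points), by progenitor and batch, with the median of the 50 (solid line) and of all genes tested (dotted line). The solid line is below the dotted line and below 0 in all 16 libraries, with the median nearest to 0 in batch 3 for each progenitor, and the points of BNAP/GRP1 4 spread on both sides of 0.

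Whether the machinery differs among the progenitors was asked with limma's moderated F-test over their 4 means. None of the 50 genes passed, where 0% of all genes did, and at an unadjusted p under 0.05 there was 1, Kif3a (limma adjusted p = 1), against 1.38% of all genes. With the replicate block 0 passed and 4 had an unadjusted p under 0.05, against 7.55% of all genes. Both counts at the unadjusted p lay near the shares of all genes, and Kif3a passed in neither model. As a description only, Kif3a averaged 12.1 ± 4.29 and 10.9 ± 3.19 RPKM in BNAP/GRP1 and GRP2/MP3 and 34.9 ± 19.4 and 32.5 ± 18.3 in GRP3 and PFMP (SD, n = 4). In batches 1 and 2 its levels were 7.57 to 13.1 RPKM in the first pair of populations and 31.7 to 58.4 in the second, and in batch 3 all 4 progenitors were between 15.2 and 20.1. That none of the 50 passed does not show that the 4 progenitors hold them at the same level.

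Genes that act with this machinery were counted from lists that overlap it in no gene. Of 14 genes for chains of dynein-2, the motor of the return journey, 5 fell in the mean comparison (median -1.50), against 1.96% of all genes. Most of the 14 are light chains shared with the other cytoplasmic dynein, so the count is not that of the return motor alone. Of 28 further IFT, BBSome and gate genes 4 fell (median -1.28), or 13 with the replicate block (4.14% of all genes). Among the ciliary receptors and Hedgehog components, the cargo of these trains, 0 of 13 fell (median -0.20; 1 with the block). Smo, the Hedgehog signal transducer that enters the cilium, was at 4.87, 7.96, 1.58 and 16.8 RPKM in NSC and between 0.192 and 19.5 in the progenitors. None of the 3 lists had a gene that rose.

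Genes of motile cilia fell as well. Of 32 genes of the motile axoneme, the dynein arms, radial spokes and central apparatus that make a cilium beat, 24 fell (median -3.28), and of 9 regulators of multiciliation 6 did (median -2.31). The axoneme list summed to 2742, 5126, 351 and 2539 RPKM in NSC 1 to 4 and to 10.1 to 396 in the progenitors, the 396 being BNAP/GRP1 4. Foxj1, the master regulator of motile cilia, was at 141, 352, 34.3 and 33.1 RPKM in NSC and at most 9.42 in the progenitors. Of the 12 ependymal markers 9 fell (median -6.30), all 12 with the block, and no gene of that list was at 0 in all libraries of a population. The list holds Ccdc153, Fam183b and Meig1, which are themselves tied to motile cilia, so it is not separate from the axoneme list. NSC 3, the lowest of the NSC libraries for the 50 genes, was also the lowest for the axoneme and the ependymal list. The part of ependymal cells in the levels of the 50 genes was not tested, and in sorted bulk samples fewer cells of a type and less RNA per cell cannot be told apart.

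Microglia markers had a median difference of 1.98, with 0 of 12 called in either direction. They summed to 163 to 9319 RPKM in BNAP/GRP1 and 915 to 8695 in GRP2/MP3, and in batch 3 to 2540 to 2849 in all 5 populations. In GRP3 and PFMP outside batch 3 they summed to 18.9 to 156, against 38.3 to 89.4 in NSC outside batch 3. The within-batch medians of the 50 genes in these 6 libraries were -2.45 to -1.20. OPC markers (median 2.40), neuroblast markers (0.97), pericyte and endothelial markers (-0.073) and reference housekeeping genes (-0.25) had 0 of 10 called lower each. Radial glia and astroglial markers had 1 of 10 called lower (median -1.63). The calls in the higher direction are not given for these lists. The part of these cell types in the results was not tested.

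**Figure D5:**
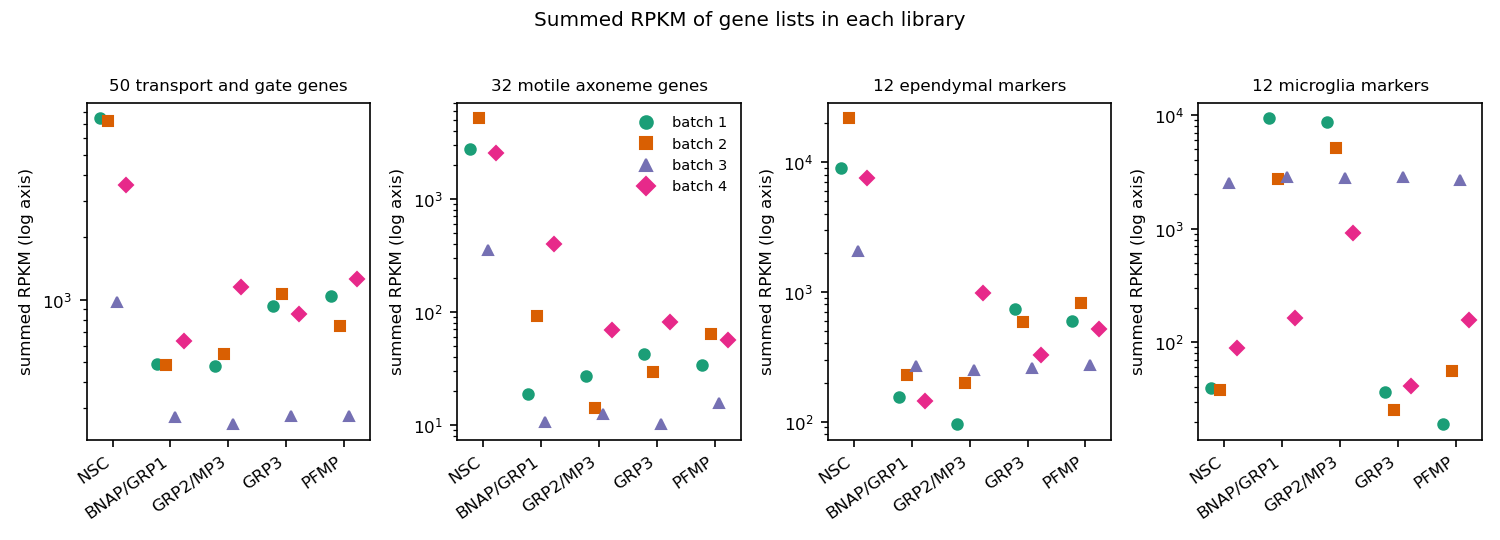
Summed RPKM (log axis) in each library of the 50 genes, of 32 motile axoneme genes, of 12 ependymal markers and of 12 microglia markers, with colour and marker for the batch. The first 3 panels have the NSC libraries at the top, with NSC 3 the lowest of them, and in the last the 5 libraries of batch 3 lie together between 2540 and 2849.

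Since many of the 50 genes fell together, their promoters were read for the sites of factors known to switch on ciliary genes. Windows of 250 bases before to 50 after the start of a gene were taken from RefSeq on GRCm38.p6, which had one for 44 of the 50 genes. An X-box, the paired site of RFX factors, was matched on both strands in 7 of the 44 (15.9%), against 1.75% of the 27025 genes with a window. The half-site GTTGCC, which lies within most X-boxes, was in 21 (47.7%, against 14.1%). The forkhead core GTAAACA, a site of Foxj1 and its relatives, was in 0 of the 44, against 4.05% of all genes. The members' windows were also richer in G and C (median 60.3% against 52.7%), which was not taken into account. The sequences around the X-boxes that lie upstream of the RefSeq start are shown on the strand of the gene. The X-box is in capitals, with up to 20 bases on either side.
Tmem237, chr1:59120097-59120143, minus strand: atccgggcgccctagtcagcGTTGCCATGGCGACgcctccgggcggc
Kif17, chr4:138262158-138262210, plus strand: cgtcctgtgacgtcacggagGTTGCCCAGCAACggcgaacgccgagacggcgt
Tctn2, chr5:124598667-124598720, plus strand: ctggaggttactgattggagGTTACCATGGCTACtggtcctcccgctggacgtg
Ift57, chr16:49699187-49699240, plus strand: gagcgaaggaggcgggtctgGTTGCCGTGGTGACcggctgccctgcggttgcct
Ift57, chr16:49699214-49699266, plus strand: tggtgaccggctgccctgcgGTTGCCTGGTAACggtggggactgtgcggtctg
Tctn3, chr19:40612339-40612391, minus strand: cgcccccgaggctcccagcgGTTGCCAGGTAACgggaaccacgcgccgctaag
The first base of the X-box lay 27 (Tmem237), 73 (Kif17), 62 (Tctn2), 87 and 60 (Ift57) and 140 (Tctn3) bases before the RefSeq start. That start is not always the outer end of the gene in GENCODE. There Kif17 begins at 138250435 on the plus strand, so its X-box lies inside the gene. The X-box of Tmem237 (gene end 59120408, minus strand) and the Ift57 X-box at 60 (gene start 49699233, plus strand) also lie inside. In Tctn1 and Bbs1 the X-box lay after the RefSeq start, as GTTGCCCGGGCAAC and GTTGCCAAGGCGAC. Of the 14 genes with a window that fell in the mean comparison 3 had an X-box, and of the 30 others 4 did. The median difference was -1.76 with an X-box and -1.83 without. Without the block Tctn2, Ift57 and Tctn3 fell, and Tmem237, Kif17, Tctn1 and Bbs1 did not. No RFX or Foxj1 binding was measured here.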

How the data were processed

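The values are the RPKM that the authors deposited for 45705 genes in 20 libraries, made according to the study's methods and the submitters' processing notes with FastQC 0.11.9, cutadapt 3.4, STAR 2.6.1 against GRCm38 and Salmon 1.9.0, with DESeq2 1.26.0 for the authors' own comparisons. The gene lengths, annotation release and read totals behind the RPKM are not given in the sources used here, so no counting interval is given. A further 26 columns without values were not used. Members were matched by gene name, and positions and exon overlaps taken from GENCODE vM21. Gene lists, named genes and members were chosen with earlier results of these data known.

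Values were taken as log2(RPKM + 1). The filter kept genes that reached 1 RPKM in 4 libraries or more. The model, with a mean per population over all 20 libraries and without a batch term (the study names none), was that of limma 3.58.1 in R 4.3.3, using lmFit and a trended eBayes. Adjusted p-values are those of limma after the Benjamini-Hochberg method over 27614 genes, with 0.05 as the threshold. The steps were tested on simulated data. Batch numbers in the labels pair the libraries: after the population means were taken out, the median correlation was 0.337, 0.262, 0.769 and 0.581 within batches 1 to 4 and -0.204 between batches. The batch therefore entered as a replicate block in an alternative model. Quantile normalization, median-of-ratios scaling, a mean of at least 5 RPKM, no filter, a pseudocount of 0.1, and leaving out each library or batch were also tried. The block without BNAP/GRP1 4 was added after seeing the data. Named genes are Ift88, Arl13b, Kif3a, Cep290, Bbs4 and Rpgrip1l and, in each role, up to 3 with the largest absolute difference. The single values of 2 members are not reported here, and both are in the counts. Genes called at 5 or fewer in a comparison, or at the ends of a range, were named after their values were seen. Relative depth was read from the commonest ratio of a library's RPKM to that of BNAP/GRP1 1, over genes above 0 in both. Promoter windows are those of RefSeq on GRCm38.p6, searched with Python 3.11.15, and figures were drawn with matplotlib 3.10.9.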

Additional observations from a re-analysis of the deposited data

Results flagged for a closer look

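In 26 genes, 130 groups of 4 libraries were checked for a value far from the other 3 by Dixon's criterion, and 9 met it; chance flags about 1 in 20 groups. GRP3 3 held 5 of the 9, all low: Ift43 at 9.52 RPKM against 37.2 to 47.9 in the other GRP3 libraries, Wdr35 at 0.426 against 6.13 to 7.98, Ift81 at 1.73 against 25.6 to 40.1, Arl3 at 22.6 against 258 to 383, and Tmem216 at 4.96 against 12.1 to 13.8. In NSC 3, Ift122 was at 8.07 RPKM against 35.9 to 44.1 in the other NSC libraries. Both are libraries of batch 3, in which the progenitor libraries had an r of 0.966 to 0.972 with each other. BNAP/GRP1 4, the shallowest library, held Kif17 at 10.8 RPKM against at most 0.228 and Bbs10 at 5.92 against at most 0.311. In GRP2/MP3 4, Cep290 was at 2.87 RPKM against 0.683 to 0.791. The causes were not tested.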

How the results depend on the processing

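The numbers of the 50 genes that fell (6, 9, 3 and 5 in BNAP/GRP1, GRP2/MP3, GRP3 and PFMP, and 17 in the mean comparison) moved with the model. With the replicate block they were 23, 31, 22, 21 and 33, and with the block and without BNAP/GRP1 4 they were 25, 34, 26, 29 and 36. The numbers among all 27614 genes moved as well. In the same order they were 210, 308, 287, 315 and 540 without the block and 558, 803, 643, 720 and 1143 with it. With the block and without BNAP/GRP1 4 they were 802, 1100, 856, 1078 and 1588. Of the 50, quantile normalization gave 10 in BNAP/GRP1 and 3 in PFMP (439 and 367 of all genes), and median-of-ratios scaling gave 8 in GRP3 (350 of all). A mean of at least 5 RPKM, which left 33 of the 50 to test, gave 7 in GRP3 (259 of 12850 genes). A pseudocount of 0.1 or no filter gave 3 in PFMP (226 of 27614 and 257 of 42687 genes). Leaving out single libraries or batches gave 0 to 12, 0 to 21, 0 to 13, 0 to 16 and 1 to 28 of the 50, lowest without batch 1 or batch 2 and highest without NSC 3. In the mean comparison 168 of all genes fell without batch 1, 138 without batch 2 and 835 without NSC 3. The numbers of the 50 were 2, 2, 1, 1 and 7 without NSC 1, 1, 2, 1, 1 and 6 without NSC 2, and 5, 3, 3, 4 and 9 without NSC 4, while without BNAP/GRP1 4 they were 8, 13, 7, 9 and 24. Of all genes, 329, 277, 410 and 882 fell in the mean comparison without NSC 1, NSC 2, NSC 4 and BNAP/GRP1 4. Without 1 of a progenitor's own libraries its count was 2 to 8, 3 to 6, 1 to 2 and 1 to 3 of the 50. That of all genes was 103 to 436, 182 to 285, 162 to 249 and 215 to 262. None of the 50 rose and none of them differed among the progenitors in any of these. The median differences kept their direction, from -2.45 to -1.52 in BNAP/GRP1, -2.67 to -1.82 in GRP2/MP3, -2.25 to -1.24 in GRP3, -2.21 to -1.39 in PFMP and -2.38 to -1.56 in the mean comparison with libraries left out. Of the single genes, 3 with differences near 0 and no call changed sign when libraries were left out: Ttc21b ran from -0.63 to 0.11, Kif3b from -0.64 to 0.038 and Bbs12 from -0.19 to 0.32, and Bbs12 was at -0.058 with the block without BNAP/GRP1 4. The causes were not tested. With an unknown read total and a relative depth down to 0.0395, low genes cannot be called absent from a value of 0.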
